A study of Homo sapiens with 6 samples.

Results

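A set of 8 genes of activin and bone morphogenetic protein (BMP) signalling were followed in LX-2 cells, an immortalised human line of hepatic stellate cells, the vitamin A-storing pericytes of the liver that become matrix-producing myofibroblasts after injury. They were chosen by symbol from a list of 10: the ligand genes INHBA, BMP2 and BMP4, the secreted antagonist genes FST, FSTL3 and GREM1, the pseudoreceptor gene BAMBI and the target genes ID1, ID2 and ID3. The deposited table of 16569 genes holds 8 of the 10, and BMP2 and GREM1 were not analysed here. All 8 passed the filter on low values, an average of 10 or more normalized counts across all 6 libraries, and stood among the 11872 genes tested. The tested cells received recombinant IGFBP-7, a secreted insulin-like growth factor binding protein, at 100 ng/mL for 24 h, and the control cells received phosphate-buffered saline (PBS) for the same time. Both groups were wild-type LX-2 cells grown in 2% fetal bovine serum and kept without serum for 18 h before treatment, with 3 libraries of poly(A) RNA per group. A single immortalised line stands for stellate cells here, and no label says whether libraries within a group stem from separate cultures. If they do not, the p-values reflect technical spread alone.

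Activins are dimers of inhibin beta subunits that signal through type II and type I receptor kinases to SMAD2 and SMAD3, the same transducers that TGF-beta uses, whereas BMPs signal through related receptors to SMAD1, SMAD5 and SMAD9. Follistatin and its relative FSTL3 bind activin outside the cell and keep it from its receptors, and gremlin does so for BMPs. The ID genes are classical direct targets of the BMP arm. Their proteins lack a DNA-binding region and tie up the E proteins that other basic helix-loop-helix factors need as partners. In the liver, activin A and BMPs take part in growth control, fibrosis and iron sensing, and stellate cells make both ligands and antagonists.

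To show the promoters from which the main genes are read, the 300-base RefSeq windows of 5 genes (build GRCh38.p14, 250 bases before the annotated start and 50 from it) follow, 5′ to 3′ along each gene. They are the activin subunit gene and its binding protein genes, which moved in different directions, the pseudoreceptor gene and the ID gene with the largest change. Capitals mark CAGAC or its reverse complement GTCTG, the core that SMAD3 and SMAD4 bind, and the palindrome GGCGCC, a GC-rich sequence bound by SMAD1 and SMAD5. The windows are chr7:41703041-41703340 on the minus strand for INHBA and, on the plus strand, chr19:676142-676441 for FSTL3, chr5:53480379-53480678 for FST, chr10:28677271-28677570 for BAMBI and chr20:31605039-31605338 for ID1.
INHBA: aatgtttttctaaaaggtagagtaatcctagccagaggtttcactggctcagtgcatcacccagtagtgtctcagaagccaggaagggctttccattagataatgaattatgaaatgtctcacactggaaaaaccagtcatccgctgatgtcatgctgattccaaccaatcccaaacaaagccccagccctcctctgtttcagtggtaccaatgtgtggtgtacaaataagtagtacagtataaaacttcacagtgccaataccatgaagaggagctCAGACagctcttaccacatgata
FSTL3: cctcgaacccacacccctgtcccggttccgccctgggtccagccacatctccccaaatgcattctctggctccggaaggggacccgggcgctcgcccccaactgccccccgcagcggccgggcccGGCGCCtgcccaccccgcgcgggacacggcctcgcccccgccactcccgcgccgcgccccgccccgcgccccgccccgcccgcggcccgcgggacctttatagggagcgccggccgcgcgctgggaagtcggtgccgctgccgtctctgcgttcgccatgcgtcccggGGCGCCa
FST: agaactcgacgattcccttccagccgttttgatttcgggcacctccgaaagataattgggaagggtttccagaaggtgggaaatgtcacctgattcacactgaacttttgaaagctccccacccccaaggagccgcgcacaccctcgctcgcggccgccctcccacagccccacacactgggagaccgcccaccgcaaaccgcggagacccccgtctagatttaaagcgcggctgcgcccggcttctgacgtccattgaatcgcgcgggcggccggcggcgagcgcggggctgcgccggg
BAMBI: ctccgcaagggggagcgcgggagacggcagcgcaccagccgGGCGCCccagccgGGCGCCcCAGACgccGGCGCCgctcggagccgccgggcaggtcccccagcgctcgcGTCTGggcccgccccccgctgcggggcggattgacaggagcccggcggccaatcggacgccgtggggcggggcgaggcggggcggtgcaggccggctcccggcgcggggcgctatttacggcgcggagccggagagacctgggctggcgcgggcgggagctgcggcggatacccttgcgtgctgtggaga
ID1: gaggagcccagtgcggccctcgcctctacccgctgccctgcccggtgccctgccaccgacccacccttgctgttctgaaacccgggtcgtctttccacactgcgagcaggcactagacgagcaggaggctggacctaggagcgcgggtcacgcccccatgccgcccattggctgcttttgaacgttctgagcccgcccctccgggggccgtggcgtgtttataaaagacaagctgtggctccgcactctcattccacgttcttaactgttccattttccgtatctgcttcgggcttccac

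CAGAC on either strand lies in 45.3% of the 35116 RefSeq windows of this length and GGCGCC in 19.2%, so a match is common. By gene, with a match in any of its windows, the shares are 49.99% and 22.01% of 27305 genes. These shares are not matched for base content. G and C make up 80% of the BAMBI window and 78.67% of the FSTL3 window, against 43.33% of the INHBA window. The INHBA window holds 1 CAGAC, its first base at 28 counted from the start as 1, and no GGCGCC. The FSTL3 window holds 2 copies of GGCGCC, at -125 and 44, and no CAGAC. The BAMBI window holds 3 copies of GGCGCC, at -209, -196 and -181, and 2 of the CAGAC core, at -189 and -140. Neither sequence is in the FST or ID1 window. None of the copies overlap. All 8 genes matched a RefSeq window by symbol. Of those not printed, BMP4 has 3 windows, each with 1 CAGAC core, and the first also holds 2 copies of GGCGCC. The ID3 window holds 1 CAGAC core, at -147, and the ID2 window neither sequence. A match is a description of letters, and binding was not measured.

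After 24 h with IGFBP-7, the activin subunit gene INHBA and the activin-binding gene FSTL3 rose, the other activin-binding gene FST and the ligand gene BMP4 fell, the pseudoreceptor gene BAMBI rose and the ID genes rose, ID1 the most. All 8 genes passed an adjusted p of 0.05, 6 higher and 2 lower with IGFBP-7. Of all genes tested, 60.6% passed, 31.3% higher and 29.2% lower, so passing alone says little about these 8. A change of at least 2-fold was found in 5 of them, against 11.4% of all tested genes. The groups did not overlap in 7 of the 8, ID3 being the exception, against 63.5% of all tested genes. The median log2 change was 0.55 over the 8 genes and 0.024 over all tested genes. The 8 genes were chosen with earlier results of these data known. Their counts and median therefore stand beside those of all tested genes as a description only. Levels are the authors' normalized counts, and each log2 change is the IGFBP-7 mean less the PBS mean of log2(normalized count + 1), with limma's standard error (SE) and Benjamini-Hochberg adjusted p. As these are bulk libraries, a change in the number of cells that express a gene and a change in RNA per cell cannot be told apart.

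**Figure D1:**
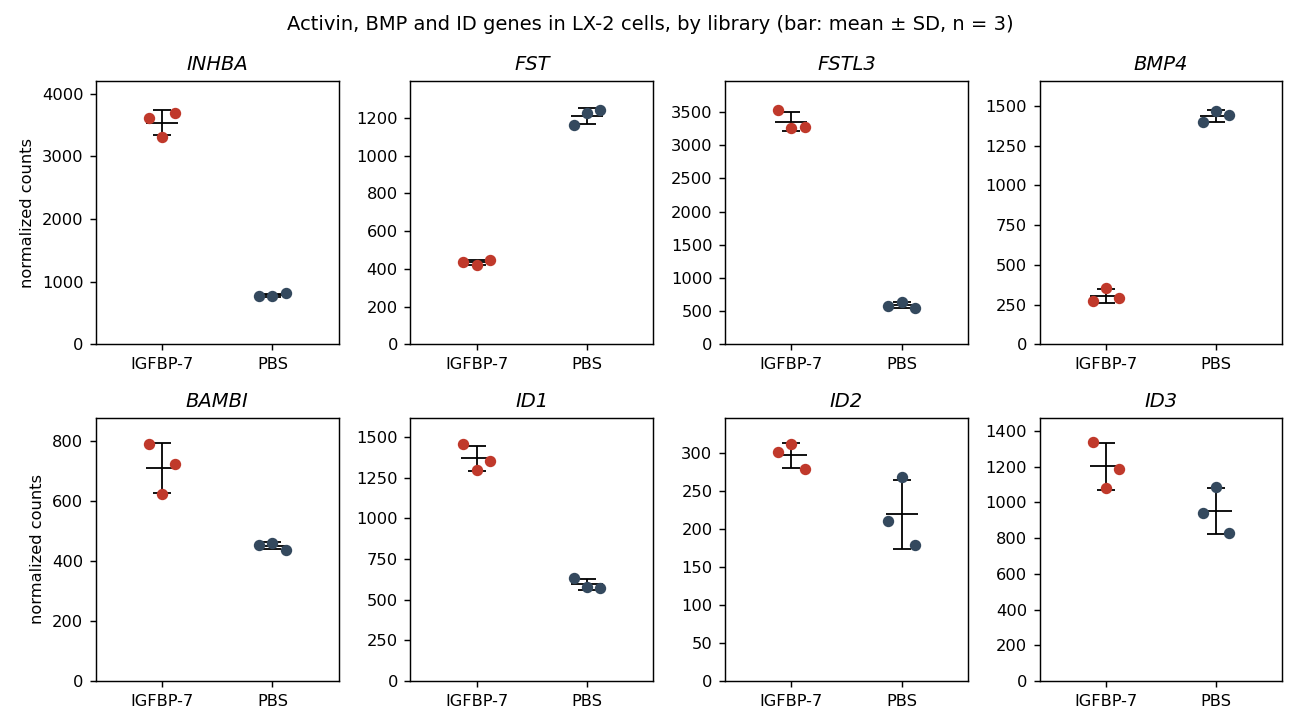
Normalized counts of the 8 genes (vertical axes from 0) in each of the 3 IGFBP-7 libraries (red) and 3 PBS libraries (dark blue), with mean and SD as bars. The IGFBP-7 points lie above the PBS points for INHBA, FSTL3, BAMBI, ID1 and ID2 and below them for FST and BMP4, and for ID3 they overlap.

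INHBA encodes the beta A subunit, of which activin A is a dimer. It had 3604, 3309 and 3697 normalized counts in the IGFBP-7 libraries, against 770.3, 763.0 and 812.8 in the PBS libraries. Each IGFBP-7 library stood more than 2-fold above every PBS library. The means were 3537 ± 203 with IGFBP-7 and 782.0 ± 26.9 with PBS (SD, n = 3 each), a log2 change of 2.17 ± 0.07 or 4.51-fold (limma adjusted p = 7.96e-32). A larger rise was found in 1.41% of tested genes. INHBA-AS1, an antisense gene that overlaps INHBA in RefSeq, averaged 18.3 ± 9.35 with IGFBP-7 and 4.12 ± 1.14 with PBS. It passed as higher, with a log2 change of 1.83 ± 0.68 (limma adjusted p = 0.0177). The sources used here do not state whether counting was strand-specific, so reads of the INHBA pair cannot be told apart. The antisense gene held 57 fragments in the IGFBP-7 libraries and 12 in the PBS libraries, against 11011 and 2286 of INHBA. These counts do not show how many reads the pair shares.

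FSTL3 encodes a follistatin-like glycoprotein that binds activin and myostatin. It had 3526, 3264 and 3279.6 normalized counts with IGFBP-7, against 582.8, 631.4 and 550.1 with PBS. All IGFBP-7 libraries lay far above all PBS libraries. Its log2 change of 2.51 ± 0.07, or 5.70-fold (limma adjusted p = 1.97e-33), was the largest rise among the 8 genes, and 0.943% of tested genes rose more.

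FST encodes follistatin, which binds activin with high affinity and some BMPs more weakly. It moved the other way, with 435.5, 420.0 and 446.4 normalized counts in the IGFBP-7 libraries and 1165, 1226 and 1242 in the PBS libraries. The groups were well apart, with SDs of 13.2 and 40.8. FST fell by 1.48 ± 0.09 on the log2 scale, so that the PBS level was 2.79-fold that with IGFBP-7 (limma adjusted p = 4.48e-20). A larger fall was found in 3.17% of tested genes.

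Ratios between these genes within a library do not depend on how libraries are scaled against each other. They are of normalized counts not divided by transcript length, so they compare libraries and not the amounts of the 2 transcripts. The INHBA to FST ratio was 8.28, 7.88 and 8.28 in the IGFBP-7 libraries, against 0.661, 0.623 and 0.654 in the PBS libraries. It was thus 12.6-fold higher with IGFBP-7, a difference of 3.65 in log2 ratio. The INHBA to FSTL3 ratio was 1.02, 1.01 and 1.13 with IGFBP-7, against 1.32, 1.21 and 1.48 with PBS. INHBA therefore gained slightly less than FSTL3, by -0.34 in log2 ratio, although both rose severalfold. The FSTL3 to FST ratio, chosen after the values were seen, was 8.10, 7.77 and 7.35 with IGFBP-7 and 0.50, 0.515 and 0.443 with PBS, a 15.9-fold difference. For each of these 3 ratios the groups did not overlap, and the two-sided exact permutation test gave p = 0.1, the smallest that 3 against 3 libraries allow (0.12 after Benjamini-Hochberg adjustment over the 6 ratios computed).

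**Figure D2:**
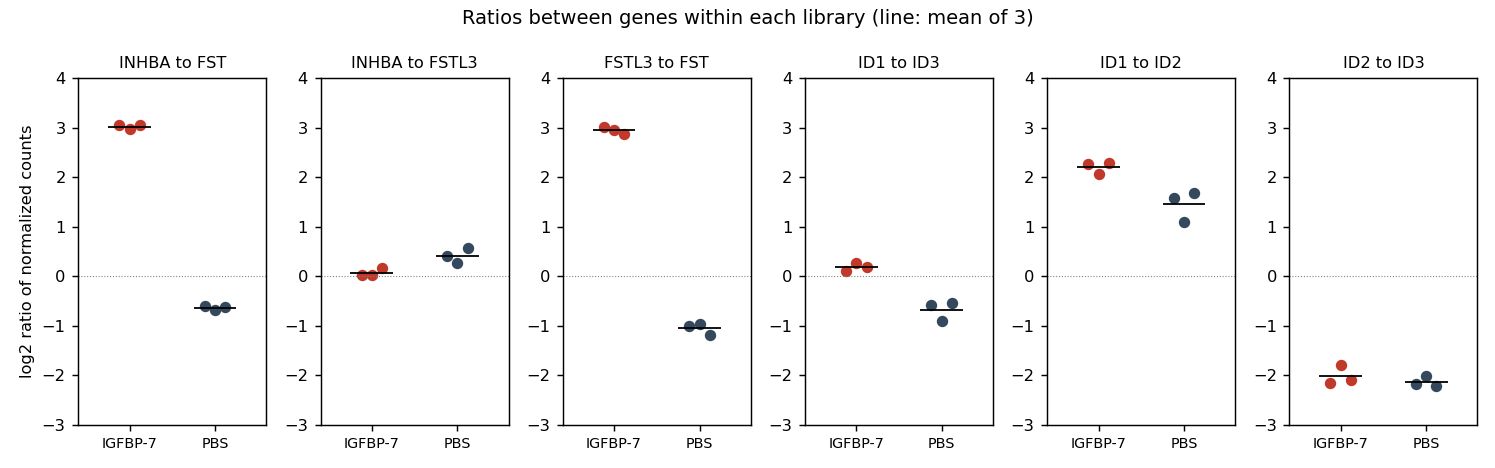
Log2 ratio of normalized counts (vertical axis) of 6 gene pairs in each IGFBP-7 library (red) and PBS library (dark blue), with the mean of 3 as a line. INHBA to FST and FSTL3 to FST differ most, ID1 to ID3 and ID1 to ID2 are higher with IGFBP-7, INHBA to FSTL3 is slightly lower, and ID2 to ID3 overlaps.

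BMP4 encodes a BMP ligand that in many mesenchymal cells drives the SMAD1 and SMAD5 arm. It had 271.9, 352.3 and 289.3 normalized counts in the IGFBP-7 libraries and 1398, 1471 and 1442 in the PBS libraries. The highest IGFBP-7 library, replicate 2, was still far below the lowest PBS library. BMP4 fell by 2.24 ± 0.10 on the log2 scale, the largest fall of the 8 genes, and the PBS level was 4.74-fold that with IGFBP-7 (limma adjusted p = 5.55e-26). A larger fall was found in 0.918% of tested genes.

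BAMBI encodes a transmembrane protein like a type I receptor without the kinase, which dampens TGF-beta, activin and BMP signals and is itself a target of both arms. Its normalized counts were 787.1, 621.6 and 721.2 with IGFBP-7, against 453.1, 460.6 and 436.9 with PBS. The IGFBP-7 libraries spread more widely than the PBS libraries, with SDs of 83.3 and 12.1, but did not overlap them. BAMBI rose by 0.65 ± 0.10 on the log2 scale or 1.57-fold (limma adjusted p = 3.28e-07), and 10.04% of tested genes rose more.

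ID1, ID2 and ID3 encode helix-loop-helix inhibitors that bind E proteins. ID1 had 1454, 1297 and 1351 normalized counts with IGFBP-7 and 630.2, 577.4 and 572.5 with PBS. Every IGFBP-7 library held more than 2-fold the counts of every PBS library, and ID1 rose by 1.20 ± 0.08 on the log2 scale or 2.30-fold (limma adjusted p = 1.20e-17). ID2 had 300.5, 310.8 and 277.9 with IGFBP-7 against 210.1, 268.1 and 178.4 with PBS. The lowest IGFBP-7 library lay just above the highest PBS library, and the log2 change was 0.45 ± 0.15 (limma adjusted p = 0.00608). ID3 had 1339, 1079.8 and 1186 with IGFBP-7 against 943.3, 1086 and 826.7 with PBS. The groups overlapped, as PBS replicate 2 exceeded IGFBP-7 replicate 2, and the log2 change was 0.34 ± 0.09 (limma adjusted p = 0.000882). ID4, the remaining member of the family, was near the level of 3 fragments, with 6 fragments in the IGFBP-7 libraries and 8 in the PBS libraries, and was not tested.

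The calls of ID2 and ID3 depended on the scaling between libraries. When each library was scaled to its total over the genes of the table, the median over all tested genes moved by -0.14 on the log2 scale, and 36.8% of the called genes were higher in place of 51.7%. ID2 then had a log2 change of 0.31 (limma adjusted p = 0.0671, within 0.000918 to 0.0745 over its alternatives) and ID3 one of 0.20 (limma adjusted p = 0.0569, within 0.000103 to 0.0569). The highest p of ID2, 0.0745 at a log2 change of 0.32, came without PBS replicate 3. The other 6 genes passed under all 15 alternatives run, in the same direction.

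**Figure D3:**
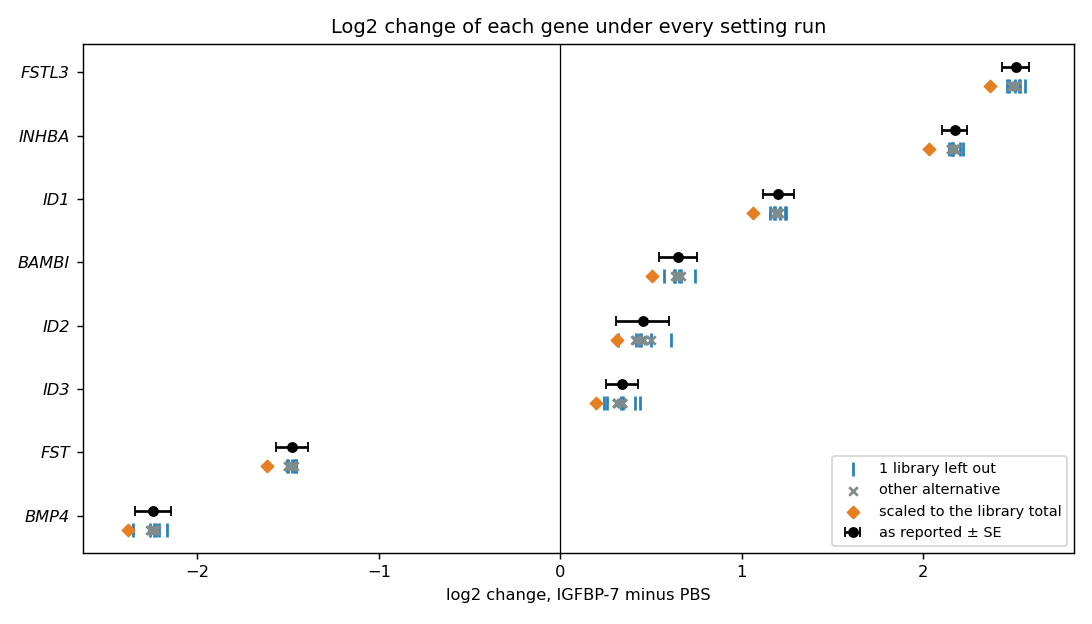
Log2 change, IGFBP-7 minus PBS (horizontal axis), of each gene as reported with its SE (black), with each library left out in turn (blue ticks), scaled to the library total (orange diamonds) and under the other alternatives (grey crosses). ID2 and ID3 lie nearest 0, and no gene crosses it.

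Within a library, ID1 gained on both other ID genes. The ID1 to ID3 ratio was 1.09, 1.20 and 1.14 in the IGFBP-7 libraries and 0.668, 0.532 and 0.693 in the PBS libraries, a 1.82-fold difference without overlap. The ID1 to ID2 ratio was 4.84, 4.17 and 4.86 with IGFBP-7 and 3.0, 2.15 and 3.21 with PBS, a 1.68-fold difference without overlap. For both the exact permutation p was 0.1. The ID2 to ID3 ratio overlapped between groups, 0.224 to 0.288 with IGFBP-7 and 0.216 to 0.247 with PBS (exact permutation p = 0.5). These 3 pairs were chosen after the values were seen. ID2-AS1, which is read away from ID2, averaged 25.7 ± 4.33 with IGFBP-7 and 27.7 ± 13.5 with PBS and did not pass (limma adjusted p = 0.970).

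The gremlin gene itself was not analysed here. GREM1-AS1, a noncoding gene that overlaps GREM1 in RefSeq, averaged 2176 ± 203 with IGFBP-7 and 2369.6 ± 97.9 with PBS, a log2 change of -0.13 ± 0.07 that did not pass (limma adjusted p = 0.0990). Without the strand setting, its counts may hold reads of GREM1, so the value is uncertain. It says nothing of the GREM1 transcript.

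The rest of the pathway was read from 6 lists of genes by role, of whose 112 different genes 66 were tested. Of these, 33 rose and 21 fell. Lists and genes were set with earlier results of these data known, so their counts stand beside 31.3% higher and 29.2% lower of all tested genes as a description. Scaled to library totals, 23 rose and 22 fell, beside 20.5% higher and 35.1% lower of the 11881 genes then tested.

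Among 14 other ligand genes tested, 4 rose, 5 fell and 5 did not pass. Scaled to library totals, 3 rose and 6 fell. The median log2 change was -0.16, or -0.29 with that scaling. GDF6, which encodes a BMP-family ligand, rose to 106 ± 20.1 normalized counts with IGFBP-7, against 7.49 ± 2.99 with PBS (log2 change 3.70 ± 0.39). INHBE, the inhibin beta E gene known from hepatocytes, had 35.3 ± 2.70 with IGFBP-7 and 13.2 ± 3.54 with PBS and rose. GDF5, which encodes a joint and cartilage ligand of the BMP family, fell and had 5 fragments in all IGFBP-7 libraries and 61 in the PBS libraries. It stood at 4.09, 0.847 and 0 normalized counts with IGFBP-7, against 5.15, 23.6 and 34.2 with PBS, so PBS replicate 1 lay close to the IGFBP-7 libraries. Its log2 change of -3.05 ± 0.89 was -3.80 without PBS replicate 1, -3.68 without IGFBP-7 replicate 1 and -1.81 with a pseudocount of 5. Without PBS replicate 2 or 3 GDF5 averaged under 10 and was not tested. MSTN, which encodes the FSTL3 ligand myostatin, fell to 13.0 ± 4.85 with IGFBP-7, against 49.8 ± 5.07 with PBS. INHBB, the other common activin subunit gene and chosen after its values were seen, fell to 147 ± 9.42 with IGFBP-7, against 234 ± 29.3 with PBS, a log2 change of -0.66 ± 0.16 (limma adjusted p = 0.000360).

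Of 8 other secreted antagonist and binding protein genes tested, 1 rose, 5 fell and 2 did not pass, also when scaled to library totals. The median log2 change was -0.90. BMPER, which encodes a BMP-binding modulator, fell to 229.7 ± 29.5 normalized counts with IGFBP-7, against 1044 ± 60.8 with PBS. TLL1, which fell to 201 ± 46.0 against 899.6 ± 64.7 with PBS, is no antagonist but a protease that cleaves the BMP antagonist chordin. The chordin gene CHRD rose to 28.1 ± 5.69 with IGFBP-7, against 9.71 ± 7.30 with PBS, a log2 change of 1.76 ± 0.56. Without PBS replicate 2 the CHRD change was 1.01 and did not pass (limma adjusted p = 0.0812, within 0.00167 to 0.0812 over its alternatives).

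Of 10 receptor and co-receptor genes tested, 5 rose, 3 fell and 2 did not pass. Scaled to library totals, 3 rose and 3 fell, and the median log2 change was 0.024 in place of 0.17. BMPR2, the main type II receptor gene of BMPs, rose to 17187 ± 885 normalized counts with IGFBP-7, against 5898 ± 197 with PBS, a log2 change of 1.54 ± 0.05. ACVR1, which encodes a type I receptor of BMPs that also binds activin, had 1980 ± 102 with IGFBP-7 and 1257 ± 21.6 with PBS and rose by 0.65 ± 0.07. BMPR1B rose by 1.66 ± 0.27. ACVR2A, the activin type II receptor gene, rose by 0.45 ± 0.15, a call lost on scaling to library totals (limma adjusted p = 0.0704) and without IGFBP-7 replicate 1 (0.0632), within 0.00311 to 0.0704 over its alternatives. TMEFF2, which encodes a follistatin-domain transmembrane protein, fell by 1.73 ± 0.12 and ACVRL1, a type I receptor gene of endothelial cells, by 0.96 ± 0.19. ACVR1B and BMPR1A were not analysed here.

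All 15 genes of SMADs and intracellular regulators tested passed, 13 higher and 2 lower, and their median log2 change was 0.31. Scaled to library totals, 9 rose and 2 fell, and the median was 0.17. The inhibitory SMAD7 gene rose to 4005 ± 261 normalized counts with IGFBP-7, against 400.5 ± 23.5 with PBS, and the co-repressor gene SKIL to 5610 ± 486 against 869 ± 59.1 with PBS. SMAD3, the activin and TGF-beta transducer gene, fell by 1.17 ± 0.05 on the log2 scale, and the SMAD phosphatase gene CTDSP1 by 0.22 ± 0.06. The BMP transducer genes SMAD1 and SMAD5 rose by 0.44 ± 0.09 and 0.27 ± 0.05. SMAD5 was at 0.13 when scaled to library totals and still passed. SMAD6, which encodes the inhibitory SMAD of the BMP arm, had 806 ± 53.1 with IGFBP-7 and 656 ± 30.9 with PBS, a log2 change of 0.29 ± 0.09. Scaled to library totals, SMAD6 was at 0.15 and did not pass (limma adjusted p = 0.143, within 0.00315 to 0.143). SMAD9, at 0.23 ± 0.10 with overlapping groups, passed narrowly (limma adjusted p = 0.0469). SMAD9 lost its call under 8 of 15 alternatives, among them leaving out IGFBP-7 replicate 1 or 2 (0.160 and 0.123) or PBS replicate 1 or 3 (0.234 and 0.0519), within 0.0217 to 0.467.

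Of 13 tested BMP target genes outside the ID genes, 8 rose, 3 fell and 2 did not pass. Their median log2 change was 0.46. Of these 13, SMAD6, SMAD7 and SMAD9 are counted above too. Scaled to library totals, 5 rose and 3 fell. The zinc-finger factor gene GATA3 rose to 294 ± 15.9 normalized counts with IGFBP-7, against 56.1 ± 1.41 with PBS. ATOH8, a basic helix-loop-helix gene of the BMP and iron response in liver, fell to 189.8 ± 19.1 with IGFBP-7, against 335 ± 10.6 with PBS, and GATA2 fell by 0.58 ± 0.07 on the log2 scale.

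Of 9 tested partners of ID proteins and related helix-loop-helix genes, 5 rose, 3 fell and 1 did not pass. Scaled to library totals, 3 rose and 3 fell. TCF4, which encodes an E protein that ID proteins bind, rose to 4425 ± 304 normalized counts with IGFBP-7, against 1613 ± 75.3 with PBS, a log2 change of 1.45 ± 0.06. MSC, which encodes the repressor musculin, rose to 51.2 ± 13.8 with IGFBP-7, against 3.45 ± 1.29 with PBS. The PBS libraries held 10 MSC fragments in all, near the floor of 3 per library, and the log2 change of 3.56 ± 0.54 was 2.71 with a pseudocount of 5. The tendon factor gene SCX fell by 1.03 ± 0.26. HAND2 had a log2 change of -0.59 ± 0.23 (limma adjusted p = 0.0240) and lost its call under 5 of 14 alternatives, among them leaving out IGFBP-7 replicate 3 (0.0927), PBS replicate 2 (0.106) or PBS replicate 3 (0.0800), within 0.00632 to 0.106. In the table, an antisense gene overlaps GDF5, SMAD1, SMAD5, GATA2, GATA3, TCF4, MSC and HAND2, and TMEFF2, CTDSP1 and SCX overlap another gene, so their values are uncertain without the strand setting.

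**Figure D4:**
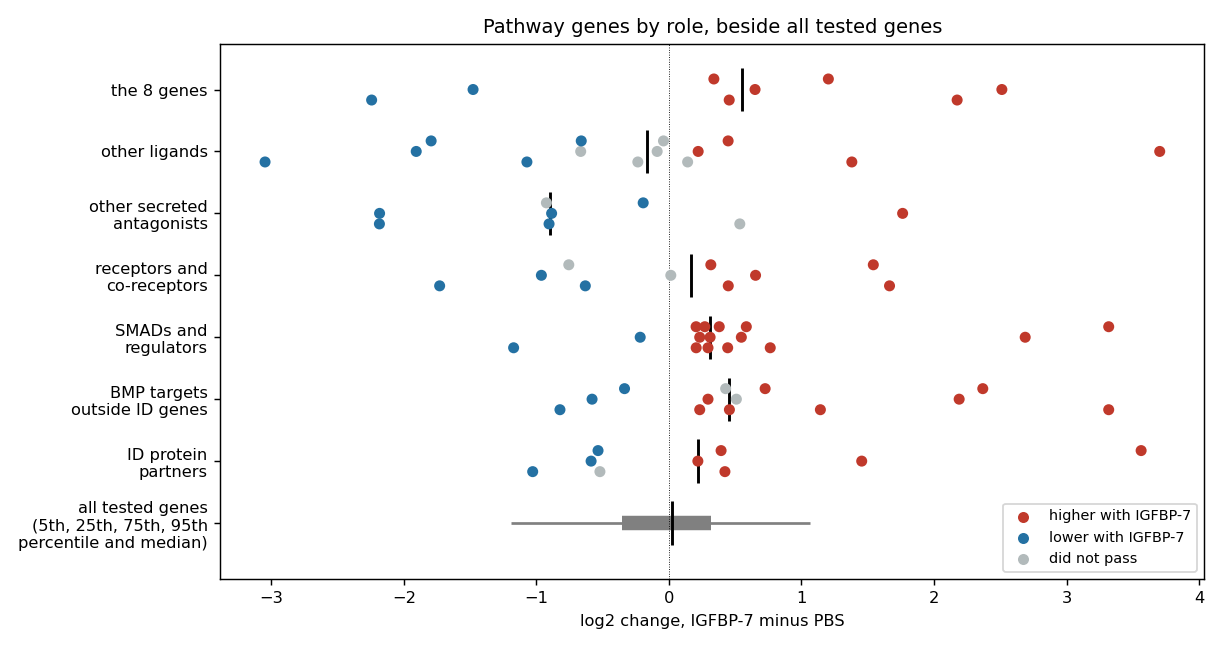
Log2 change, IGFBP-7 minus PBS (horizontal axis), of each tested gene of the 8 and of the 6 pathway lists, coloured by call, with each list's median as a black line and, in the lowest row, grey lines spanning the 5th to 95th (thin) and 25th to 75th (thick) percentile of all tested genes. The thin line runs from -1.19 to 1.07, with FSTL3, INHBA and ID1 above its upper end and BMP4 and FST below its lower end.

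For the genes with the largest rise and the largest fall, the tested genes with the most similar profile were found by Euclidean distance between log2 values centred over the 6 libraries. Those nearest FSTL3 were LMCD1, SEMA7A and LIF, at 0.18, 0.20 and 0.20, against a median distance of 3.11 over all tested genes. LMCD1 had 3334 ± 86.7 normalized counts with IGFBP-7 and 592 ± 17.2 with PBS. Those nearest BMP4 were CD14, ITGB4 and PSG2, at 0.17, 0.20 and 0.21, against a median of 2.86. CD14 had 86.0 ± 16.6 with IGFBP-7 and 399 ± 11.0 with PBS, and PSG2 had 5.06 ± 0.92 with IGFBP-7 and 25.9 ± 2.41 with PBS. PSG2 belongs to a family of near-identical genes and its value is uncertain. With 6 libraries in 2 groups, this likeness is mostly one of group means.

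The IGFBP-7 libraries held 45242993 to 55479940 recovered reads over all listed genes, and the PBS libraries 40599380 to 43537923, with 2 reads taken as 1 fragment. A count of 3 fragments, taken as the floor of detection in 1 library, is 2.54 to 3.20 normalized counts in these libraries. The 8 genes held 644 to 11011 fragments in the 3 libraries of a group, so none was near it. Of the stellate and mesenchymal markers, 9 of 11 were in the table, with summed levels of 218227 to 237763 normalized counts with IGFBP-7 and 65324 to 69169 with PBS, COL1A1 making up most of the sum at 198928 with IGFBP-7 and 49614 with PBS. Not all of these markers moved that way, as RELN fell to 71.8 ± 19.7 with IGFBP-7, against 528.8 ± 44.0 with PBS, HAND2 fell as given above, and LHX2, at 802 ± 34.8 with IGFBP-7 and 902 ± 90.6 with PBS, did not pass (limma adjusted p = 0.101). DES averaged under 10, and VIM and LRAT were not analysed here. Of the hepatocyte markers in the table, 6 of 7 averaged under 10 normalized counts, among them ALB, APOA1, APOB and HNF4A. So did 3 of 6 macrophage and leukocyte markers, among them PTPRC, and 3 of 5 epithelial markers, among them EPCAM and CDH1. Of 6 endothelial markers only CDH5 did. PECAM1 averaged 113 ± 10.2 with IGFBP-7 and 61.5 ± 3.80 with PBS, and KDR 86.6 ± 19.0 and 83.1 ± 23.5. The epithelial marker KRT7 averaged 470 ± 17.5 with IGFBP-7 and 400 ± 73.4 with PBS. The 6 macrophage and leukocyte markers in the table, summed to 1728 to 2010 normalized counts with IGFBP-7 and 3282 to 3362 with PBS. CD68 carried most of that sum, at 1466 with IGFBP-7 and 2863 with PBS, while CSF1R of the same list rose to 293 ± 44.3 with IGFBP-7, against 56.5 ± 8.05 with PBS. The 6 endothelial markers, led by TEK, summed to 435 to 504 with IGFBP-7 and 324 to 359 with PBS, and the 5 epithelial markers, led by SOX9, to 1634 to 1736 with IGFBP-7 and 1210 to 1341 with PBS. The 7 hepatocyte markers, led by SERPINA1, summed to 219 to 260 with IGFBP-7 and 242 to 291 with PBS. The part of these differences in the results was not tested.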

How the data were processed

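Poly(A) RNA of 6 LX-2 libraries, 3 given IGFBP-7 and 3 given PBS, was sequenced from directional libraries, per the labels' protocols. The deposited values are normalized counts, a signal per gene and library that the authors did not log-transform, per the file headers. The submitters' processing notes name STAR, Subread, featureCounts and DESeq2 but no versions. Genome build, annotation and strand setting: not given in the sources used here. Within each library 100% of values were whole multiples of 1 step within 0.01 of it, so reads were recovered, 40599380 to 55479940 per library, of which 99.6% of nonzero gene counts were even. Chi-square per degree of freedom between libraries of a group was 5.10 to 6.93, so all 6 were counted. Per-sample columns left unused numbered 0.

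Genes averaging 10 or more normalized counts entered limma-trend (limma 3.58.1, R 4.3.3), which compared log2(normalized count + 1) of IGFBP-7 with PBS libraries, two-sided, without covariates, with Benjamini-Hochberg adjustment over all 11872 genes and a threshold of 0.05. Ratios were tested by exact permutation (scipy 1.17.1). Counting floors cover counting error only. Genes, lists and tests were chosen with earlier results of these data known. All genes of the set are named. Of each list, the 2 largest rises and 2 largest falls past the threshold are named, with fixed receptor and SMAD genes and ID4. Promoters are from RefSeq (GRCh38.p14). Alternatives were pseudocounts of 0.5 and 5, no filter and a filter at 100, quantile normalization, library-total scaling, edgeR 4.0.16 and DESeq2 1.42.0 on recovered reads, a replicate block, and leaving out each library.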

Additional observations from a re-analysis of the deposited data

How the results depend on the processing

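Of the totals over all genes, over the 8 genes and over the 6 lists together, all but 1 stayed within 1.5 times under the 15 alternatives. The exception was the count of genes higher with IGFBP-7, 3721 as reported and 2432 with scaling to the library total. Counts of single lists moved further. With library-total scaling, the genes higher with IGFBP-7 were 3 receptors (5 as reported), 5 BMP targets (8) and 3 ID partners (5). With a filter at 100, which tests fewer genes, 2 ligands were higher (4) and 2 lower (5), no antagonist was higher (1) and 1 ID partner was lower (3). Without PBS replicate 2 no antagonist was higher. With edgeR's quasi-likelihood test on recovered reads 7103 genes passed, with DESeq2 7108 and with limma 7192, and all 8 genes of the set passed in each. Both count-based tests took recovered reads, nearly all gene counts being even, so a fragment mostly entered as 2 reads. They were not run on fragments. Leaving out 1 library gave 6680 to 6844 genes and 7 to 8 of the 8. Labels number the libraries of each group 1 to 3 and state no pairing. Deviations of same-numbered libraries from their group means correlated at -0.05, 0.01 and -0.05. With 3 libraries per group, this cannot decide whether same-numbered libraries were handled together. With a replicate block 7177 genes and all 8 of the set passed. The INHBA to FST difference in log2 ratio was 3.63 to 3.68 and the INHBA to FSTL3 difference -0.41 to -0.26 with 1 library left out. Among the 8 genes and the list genes named by the stated rule, no direction reversed under an alternative that tested the gene. The directions of other genes named here were not followed across the alternatives. The cause of the calls lost was not tested. In the lower group, GDF5 had 5 fragments, MSC 10, INHBA-AS1 12, GDF6 22 and CHRD 28. ID4 had 6 with IGFBP-7 and 8 with PBS, against at least 644 for each of the 8 genes.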
